A study of Mus musculus with 24 samples.

Results

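The genes described here encode the enzymes that carry pyruvate and the branched-chain amino acids (BCAA: leucine, isoleucine and valine) into the tricarboxylic acid (TCA) cycle, measured by RNA-Seq in mouse subcutaneous adipose tissue (sWAT). They were chosen by gene symbol: 14 genes of the TCA cycle, 10 of pyruvate entry and 18 of BCAA breakdown, together 42 of the 19175 genes in the count table. All 42 were among the 14982 genes that passed the filter on low counts. The samples came from 24 mice in 4 groups of 6: female Gdf15-KO, female WT, male Gdf15-KO and male WT. All mice were 20 weeks old, had food ad libitum and had a mixed C57BL/6/129/SvJ background. Gdf15-KO mice lacked growth differentiation factor 15 (GDF15), a stress-induced hormone, in the whole body, and WT mice were littermates bred from heterozygous parents.

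Pyruvate, the end product of glycolysis, enters mitochondria through a carrier built from MPC1 and MPC2. The pyruvate dehydrogenase complex converts it to acetyl-CoA, and pyruvate carboxylase converts it to oxaloacetate. In white adipocytes, the citrate formed from these products can leave the mitochondrion and supply carbon for fatty acid synthesis. BCAA are first transaminated, then oxidised by the branched-chain ketoacid dehydrogenase complex, and end as acetyl-CoA or succinyl-CoA. This pathway is known to be active in differentiated adipocytes.

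Gdf15 itself had 0 to 1 counts in female Gdf15-KO mice, against 7 to 17 counts in female WT mice. In males it had 0 to 2 counts in Gdf15-KO mice and 14 to 31 counts in WT mice. Thus the targeted gene followed the genotype labels in every sample. The libraries held 22521358 to 24500575 counts. The 12 adipocyte markers were present in all mice. The summed level of 14 skeletal muscle markers ranged widely in every group, from 636 to 12530 CPM (counts relative to the TMM-scaled library size) in female Gdf15-KO mice, against 32.8 to 16910 CPM in female WT mice. In males it ranged from 90.2 to 16820 CPM in Gdf15-KO mice, against 245 to 38500 CPM in WT mice. In this bulk tissue, fewer cells of a type and less RNA per cell cannot be told apart.

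On the GRCm39 assembly the 42 genes lie on 15 chromosomes, and none lies on chromosome 8, where Gdf15 is located. RefSeq promoter windows, from 250 bases before to 50 bases after an annotated start, were found for 40 of the 42 genes. The motif AAGGTCA, known as the half-site of estrogen-related receptors, was searched on both strands, as were the longer TCAAGGTCA, which contains it, and the core motif of nuclear respiratory factor 1. AAGGTCA occurred in 1 of 40 genes (2.5%), against 5.38% of all 27025 genes with a window. The 2 other motifs occurred in none of the 40 genes, against 0.466% and 1.07% of all genes. The window of Ogdh, an E1 subunit gene of the oxoglutarate dehydrogenase complex, is shown because it holds this one match, and those of Mpc1 and Mpc2 because these genes had the largest differences between genotypes (RefSeq, GRCm38.p6, all on the + strand: Ogdh at chr11:6291920-6292219, Mpc1 at chr17:8283537-8283836 and Mpc2 at chr1:165461010-165461309). Ogdh and Mpc1 have further annotated starts, which are not printed. Capitals mark AAGGTCA read on the opposite strand, which begins 5 bases before the start.
Ogdh: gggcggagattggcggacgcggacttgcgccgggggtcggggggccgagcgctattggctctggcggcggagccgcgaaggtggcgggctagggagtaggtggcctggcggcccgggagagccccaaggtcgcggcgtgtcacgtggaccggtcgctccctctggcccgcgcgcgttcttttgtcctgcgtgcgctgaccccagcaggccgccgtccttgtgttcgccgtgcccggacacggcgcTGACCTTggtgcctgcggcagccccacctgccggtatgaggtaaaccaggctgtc
Mpc1: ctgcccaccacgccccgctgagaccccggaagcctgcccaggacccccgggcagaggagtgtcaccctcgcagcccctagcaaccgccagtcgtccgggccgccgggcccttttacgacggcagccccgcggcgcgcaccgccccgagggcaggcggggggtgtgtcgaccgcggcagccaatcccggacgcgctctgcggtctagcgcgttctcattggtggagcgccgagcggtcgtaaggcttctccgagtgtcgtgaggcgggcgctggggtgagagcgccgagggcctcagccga
Mpc2: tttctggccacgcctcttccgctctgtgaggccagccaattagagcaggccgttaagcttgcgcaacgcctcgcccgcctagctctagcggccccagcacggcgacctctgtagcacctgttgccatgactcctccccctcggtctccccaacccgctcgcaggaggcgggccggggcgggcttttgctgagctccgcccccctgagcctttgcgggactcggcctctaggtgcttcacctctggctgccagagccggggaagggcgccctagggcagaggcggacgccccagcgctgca

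Levels per kilobase of transcript were compared between the 42 genes in WT mice. The length is that of the canonical transcript of each gene, so the ranks and contrasts depend on that choice. Pcx, encoding pyruvate carboxylase, ranked first in WT mice of both sexes, with 598 CPM per kb in females and 466 CPM per kb in males. Mpc1 followed at rank 3 in WT females and rank 2 in WT males, and Pdha1, the E1 alpha subunit of pyruvate dehydrogenase, at ranks 2 and 4. Cs, citrate synthase of the TCA cycle, ranked 4 in WT females and 3 in WT males. Subunits of one complex differed widely in transcript level. Within pyruvate dehydrogenase, Pdha1 had 243 CPM per kb in WT females, while Dlat, the E2 core, had 30.7 CPM per kb and Pdhx, the E3-binding protein, 10.9 CPM per kb. The lowest of the 42 was Ppm1k, the phosphatase that activates the branched-chain ketoacid dehydrogenase, at 3.80 CPM per kb in WT females and 4.08 CPM per kb in WT males. Pyruvate genes also varied most between mice of one group. Their median coefficient of variation was 30.1% in female Gdf15-KO, 27.6% in female WT, 23.1% in male Gdf15-KO and 21.4% in male WT mice. For the BCAA genes it was 8.41%, 14.2%, 15.1% and 10.6% in the same groups.

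Next, female Gdf15-KO mice were compared with female WT mice. None of the 42 genes passed an adjusted p of 0.05 (edgeR quasi-likelihood test, Benjamini-Hochberg over all genes), while 0.194% of all genes did, and the smallest adjusted p among the 42 was 0.265. Nonetheless, the fold changes were mostly negative. At an unadjusted p under 0.05, 16 of the 24 TCA cycle and pyruvate genes were lower and none was higher, beside 7.36% of all genes lower. Of the 18 BCAA genes, 1 (Bckdk) was lower and 1 (Ppm1k) was higher at this unadjusted p, beside 3.54% of all genes higher. The median log2 fold change was -0.54 for the pyruvate genes, -0.26 for the TCA cycle genes and -0.09 for the BCAA genes, against -0.005 for all genes. Pyruvate genes contributed 9 and TCA cycle genes 7 of the 16. All 10 pyruvate and 13 of 14 TCA cycle genes had a negative value, as did 15 of 18 BCAA genes, against 51.4% of all genes. The genes were read in the same mice, so such counts, here and below, are not sums of independent results.

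The mitochondrial pyruvate carrier had the largest differences. Mpc2 (chromosome 1, 165287125 to 165308785 on GRCm39, 5 exons in its canonical transcript) had 69.0, 81.0 and 157 CPM as the lowest, median and highest value in female Gdf15-KO mice, against 120, 158 and 240 CPM in female WT mice. Of the 6 Gdf15-KO mice, 4 lay below every WT mouse, while the other two lay within the WT range. Its log2 fold change was -0.75 ± 0.22 (SE, edgeR adjusted p = 0.265). Mpc1, its partner subunit (chromosome 17, 8501736 to 8516498, 6 exons), had 107, 133 and 250 CPM in female Gdf15-KO mice, against 174, 256 and 374 CPM in female WT mice. The same 4 of 6 Gdf15-KO mice lay below the WT range. Its log2 fold change was -0.73 ± 0.24 (SE, edgeR adjusted p = 0.314).

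Subunits of the pyruvate dehydrogenase complex had smaller differences than the carrier. Dlat, which carries the acetyltransferase activity (chromosome 9, 50543457 to 50571277, 14 exons), had 111, 131 and 185 CPM in female Gdf15-KO mice, against 132, 211 and 282 CPM in female WT mice (log2 fold change -0.54 ± 0.18, SE, edgeR adjusted p = 0.314). Pdhx (chromosome 2, 102849769 to 102904060, 11 exons) had 28.9, 34.6 and 43.1 CPM in female Gdf15-KO mice, against 34.9, 47.5 and 64.4 CPM in female WT mice (log2 fold change -0.44 ± 0.15, SE, edgeR adjusted p = 0.32). For both genes 3 of 6 Gdf15-KO mice lay below the WT range and the groups overlapped. The E1 subunits Pdha1 and Pdhb had log2 fold changes of -0.49 ± 0.22 and -0.55 ± 0.21 (SE), and Pcx of -0.61 ± 0.25 (SE). Of the pyruvate dehydrogenase kinases, which inactivate the complex, Pdk1 had -0.27, Pdk2 -0.37 and Pdk4 -0.60 on the log2 scale, while Pdk3, from the list of other pathway genes, had 0.08.

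Among TCA cycle genes, Mdh1 had the smallest p. It encodes the cytosolic malate dehydrogenase (chromosome 11, 21506423 to 21522367, 9 exons) and had 258, 282 and 371 CPM in female Gdf15-KO mice, against 302, 372 and 495 CPM in female WT mice (log2 fold change -0.40 ± 0.13, SE, edgeR adjusted p = 0.32). Of the 6 Gdf15-KO mice, 4 were below all WT mice. The mitochondrial Mdh2 had a log2 fold change of -0.29, Fh1 (fumarase) of -0.27, Dld (the E3 subunit shared by the ketoacid dehydrogenases) of -0.30 and Suclg2 (a GTP-specific succinyl-CoA ligase subunit) of -0.18. The subunits of NAD-dependent isocitrate dehydrogenase had values of -0.38 (Idh3a), -0.23 (Idh3b) and -0.25 (Idh3g). The remaining TCA cycle genes with negative values lay between -0.28 for Cs (citrate synthase) and -0.18 for Dlst (the E2 subunit of oxoglutarate dehydrogenase). Idh2, the mitochondrial NADP-dependent isocitrate dehydrogenase, was the only one with a positive value, at 0.05.

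In contrast to the pyruvate genes, the BCAA genes had small log2 fold changes between female Gdf15-KO and female WT mice. The 2 regulators of the branched-chain ketoacid dehydrogenase had opposite signs. Ppm1k, which dephosphorylates and activates it, had 22.1, 25.0 and 29.3 CPM in female Gdf15-KO mice, against 16.7, 21.8 and 25.7 CPM in female WT mice (log2 fold change 0.25 ± 0.09, SE, edgeR adjusted p = 0.335). Bckdk, the kinase that inactivates it, had 57.9, 75.4 and 81.7 CPM in female Gdf15-KO mice, against 68.9, 88.6 and 99.8 CPM in female WT mice (log2 fold change -0.26 ± 0.10, SE, edgeR adjusted p = 0.343). Both pairs of groups overlapped, and neither difference passed the threshold. The catalytic subunits had values of -0.19 (Bckdha), -0.02 (Bckdhb) and 0.13 (Dbt) on the log2 scale, and Bcat2, the mitochondrial transaminase of the first step, had 0.05. The other 12 BCAA genes lay between -0.19 (Pccb, a propionyl-CoA carboxylase subunit) and -0.01 (Aldh6a1, methylmalonate semialdehyde dehydrogenase).

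**Figure D1:**
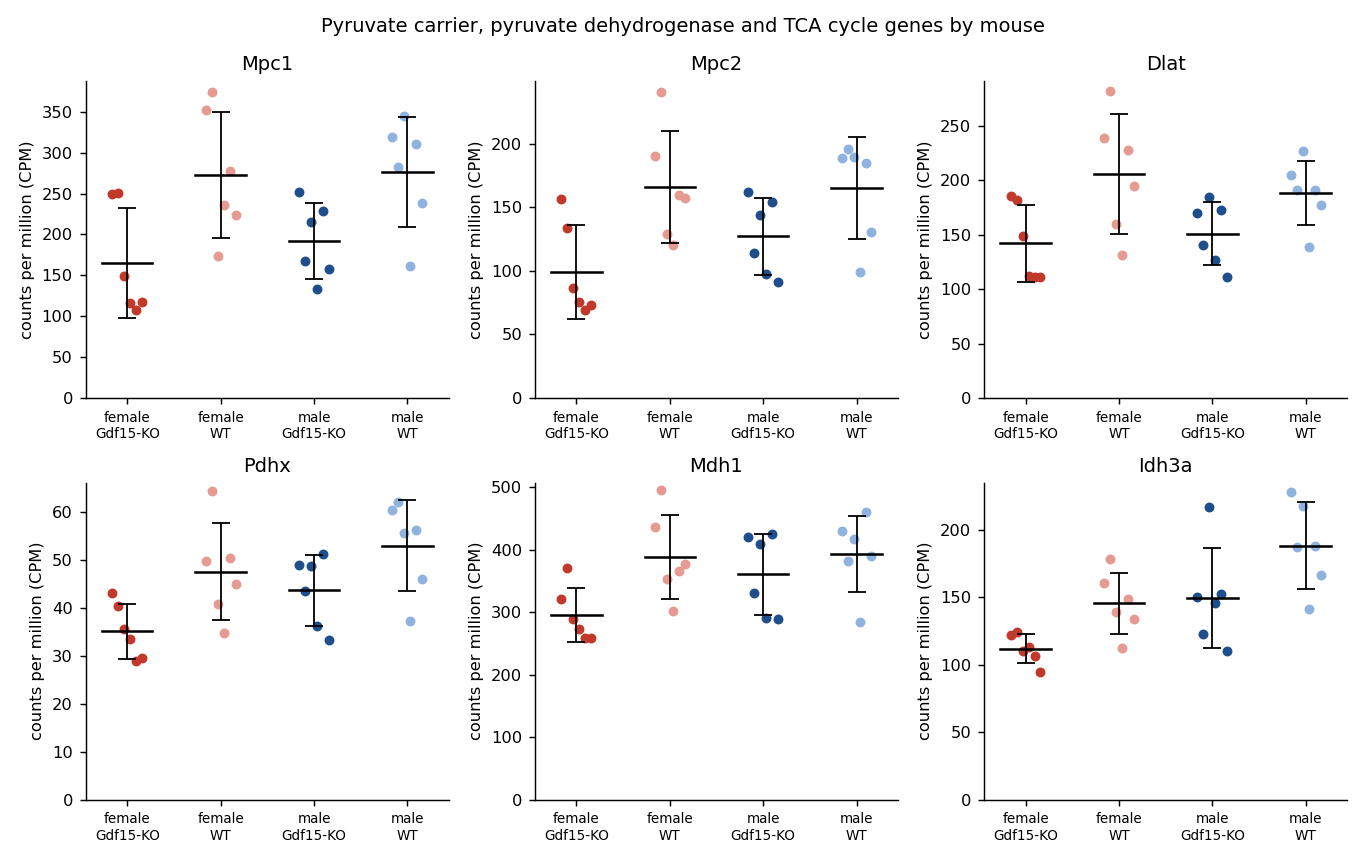
Each panel plots 1 gene in CPM on a linear axis from 0, with 1 point per mouse, a bar at the mean and error bars of 1 SD (6 mice per group). For Mpc1 and Mpc2, 4 of 6 female Gdf15-KO mice lie below all female WT mice, while 2 lie among them, and in all 6 panels the Gdf15-KO and WT values overlap in both sexes.

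Male Gdf15-KO mice were then compared with male WT mice. Again none of the 42 genes passed, beside 0.2% of all genes, and the smallest adjusted p among them was 0.81. At an unadjusted p under 0.05, 4 of 24 TCA cycle and pyruvate genes (Idh3a, Sucla2, Suclg1 and Mpc1) and 1 of 18 BCAA genes (Hibch) were lower and none was higher, beside 3.09% of all genes lower and 2.38% higher. The median log2 fold change was -0.30 for the pyruvate genes, -0.14 for the TCA cycle genes and -0.06 for the BCAA genes, against 0.001 for all genes. All 10 pyruvate, 13 of 14 TCA cycle and 16 of 18 BCAA genes had a negative value, against 49.6% of all genes. The small BCAA median rested on single mice, being -0.01 without male Gdf15-KO mouse 18 and -0.115 without male Gdf15-KO mouse 17.

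Idh3a, the catalytic subunit of NAD-dependent isocitrate dehydrogenase (chromosome 9, 54493575 to 54514730, 11 exons), had 110, 148 and 217 CPM in male Gdf15-KO mice, against 142, 188 and 228 CPM in male WT mice. Its log2 fold change was -0.33 ± 0.14 (SE, edgeR adjusted p = 0.81). Mpc1 had 133, 191 and 252 CPM in male Gdf15-KO mice, against 161, 297 and 344 CPM in male WT mice (log2 fold change -0.52 ± 0.24, SE, edgeR adjusted p = 0.866). Of the male WT mice, 5 were at 238 CPM or more and mouse 4 was at 161 CPM, within the Gdf15-KO range. Pdhx had 33.4, 46.2 and 51.3 CPM in male Gdf15-KO mice, against 37.2, 56.1 and 62.3 CPM in male WT mice (log2 fold change -0.28 ± 0.15, SE, edgeR adjusted p = 0.935).

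Of the 3 succinyl-CoA ligase subunits, 2 had an unadjusted p under 0.05 in males, while Suclg2 had a log2 fold change of -0.11. Sucla2, the ATP-specific subunit, had 91.8, 121 and 145 CPM in male Gdf15-KO mice, against 95.3, 143 and 185 CPM in male WT mice (log2 fold change -0.28 ± 0.13, SE, edgeR adjusted p = 0.889). Suclg1, the subunit shared by both forms, had 76.5, 85.2 and 103 CPM in male Gdf15-KO mice, against 65.0, 106 and 134 CPM in male WT mice (log2 fold change -0.26 ± 0.13, SE, edgeR adjusted p = 0.904). Hibch, a hydrolase of valine breakdown, had 80.1, 102 and 117 CPM in male Gdf15-KO mice, against 91.4, 121 and 138 CPM in male WT mice (log2 fold change -0.24 ± 0.11, SE, edgeR adjusted p = 0.841). The 2 groups overlapped for each of these genes. Ppm1k and Bckdk had male log2 fold changes of 0.01 and -0.03.

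Averaged over both sexes, Gdf15-KO against WT gave 0 calls among the 42 genes, beside 0.414% of all genes. At an unadjusted p under 0.05, 23 of 24 TCA cycle and pyruvate genes were lower, all but Idh2, and 2 of 18 BCAA genes (Bckdk and Hibch), beside 8.68% of all genes lower. The smallest adjusted p values were 0.12 for Mpc1 (log2 fold change -0.62 ± 0.17, SE), 0.126 for Idh3a (-0.36 ± 0.10), 0.135 for Mpc2 (-0.56 ± 0.16), 0.145 for Pdhx (-0.36 ± 0.10), 0.153 for Dlat (-0.43 ± 0.13) and 0.204 for Pdhb (-0.45 ± 0.15), all from edgeR. The median log2 fold change was -0.42 for the pyruvate, -0.21 for the TCA cycle and -0.09 for the BCAA genes. These values share their mice with the comparisons within each sex. Under other settings the call changed: DESeq2 called Mpc1, Mpc2, Dlat, Pdhx and Idh3a in this average, beside 1.64% of all genes, and leaving out male WT mouse 4 let edgeR call 5 genes. DESeq2 on the females alone called Idh3a (adjusted p = 0.044) and Pdk2 (adjusted p = 0.0396), where it called 1.38% of all genes.

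The level of each gene group was also computed per mouse as the mean of centred log2 CPM. For the pyruvate genes it was -0.68, -0.37 and 0.11 in female Gdf15-KO mice, against -0.08, 0.24 and 0.57 in female WT mice (lowest, median and highest). In males it was -0.45, -0.10 and 0.15 in Gdf15-KO mice, against -0.41, 0.29 and 0.47 in WT mice. Female Gdf15-KO mice 13 and 14 lay among the WT mice, and the other 4 below all of them. The summed level of the 10 pyruvate genes was 3091 ± 997 CPM in female Gdf15-KO mice and 4601 ± 1298 CPM in female WT mice, and 3211 ± 780 CPM in male Gdf15-KO mice and 3886 ± 764 CPM in male WT mice (SD). The level of TCA cycle and pyruvate genes minus that of BCAA genes was -0.45, -0.16 and 0.16 in female Gdf15-KO mice, against 0.01, 0.23 and 0.28 in female WT mice. In males it was -0.17, -0.10 and -0.04 in Gdf15-KO mice, against -0.18, 0.05 and 0.23 in WT mice. These differences between gene groups are given without a test, and the genotypes overlapped in both sexes.

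**Figure D2:**
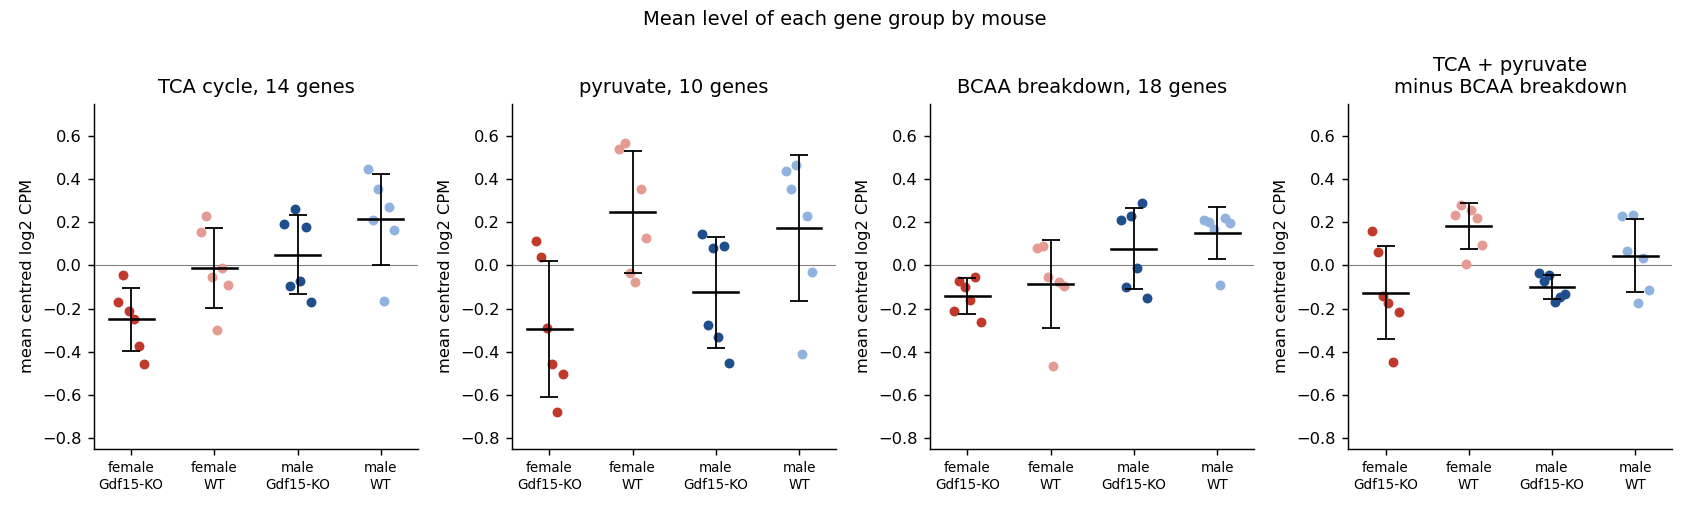
Mean centred log2 CPM of the TCA cycle, pyruvate and BCAA breakdown genes, and the TCA cycle and pyruvate level minus the BCAA level, with 1 point per mouse, a bar at the mean and error bars of 1 SD (6 mice per group). Pyruvate genes spread most, from -0.68 to 0.11 in female Gdf15-KO and from -0.08 to 0.57 in female WT mice, and 1 male WT mouse, at -0.41, lies with the lowest male Gdf15-KO mice.

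Markers of cell types were compared in the same mice. The 12 adipocyte markers summed to 10980 to 15700 CPM in female Gdf15-KO mice, against 11020 to 15970 CPM in female WT mice, and to 14600 to 25130 CPM in male Gdf15-KO mice, against 16130 to 21720 CPM in male WT mice. None of the 12 passed the test between genotypes in either sex, and none was at 0 in a group. Of 11 brown and beige adipocyte markers, 10 were tested. Their sum was 41.2 to 83.1 CPM in female Gdf15-KO mice, against 65.9 to 131 CPM in female WT mice, and 88.2 to 160 CPM in male Gdf15-KO mice, against 108 to 262 CPM in male WT mice. Of these, 1 (Cidea) passed the test, in females, beside 0.194% of all genes. At an unadjusted p under 0.05, 3 of the 10 were lower in female and 4 in male Gdf15-KO mice. For these and the following marker lists, the shares of all genes lower at this p were 7.36% in females and 3.09% in males. All 6 erythrocyte markers were lower at an unadjusted p under 0.05 in female Gdf15-KO mice (median log2 fold change -0.81), where they summed to 242 to 442 CPM, against 337 to 1077 CPM in female WT mice. In males they summed to 501 to 830 CPM in Gdf15-KO mice, against 494 to 905 CPM in WT mice, and none was lower by this measure. Of 14 mammary and epithelial markers, 6 were lower at an unadjusted p under 0.05 in male Gdf15-KO mice (median log2 fold change -2.13), at the low male sums of 5.30 to 11.97 CPM in Gdf15-KO mice, against 7.48 to 28.9 CPM in WT mice, and 1 was lower in female Gdf15-KO mice. The part of these cell types in the TCA cycle and pyruvate values was not tested beyond the scores that follow. With the adipocyte score in the model, the female median of TCA cycle and pyruvate genes was -0.25, against -0.29 without it. With the skeletal muscle score, the male median was -0.17, and with the mammary score -0.40, against -0.23 without a score.

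Other genes of these pathways were taken from 2 further lists. None of the 28 other TCA cycle and pyruvate genes passed in either sex, and at an unadjusted p under 0.05 10 were lower and 1 higher in female Gdf15-KO mice, beside 7.36% and 3.54% of all genes, and 1 was lower in male Gdf15-KO mice, beside 3.09%. Slc25a1, the mitochondrial citrate carrier, had 297, 442 and 975 CPM in female Gdf15-KO mice, against 527, 1061 and 1688 CPM in female WT mice (log2 fold change -0.97 ± 0.31, SE, edgeR adjusted p = 0.304). Slc25a11, the oxoglutarate carrier, had 75.6, 84.4 and 87.5 CPM in female Gdf15-KO mice, against 86.4, 91.6 and 105 CPM in female WT mice (log2 fold change -0.18 ± 0.06, SE, edgeR adjusted p = 0.327). Both pairs of groups overlapped. In males, Sdhb (a succinate dehydrogenase subunit) had a log2 fold change of -0.24.

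Of 20 other BCAA genes none passed either, with 5 lower and 1 higher at an unadjusted p under 0.05 in female Gdf15-KO mice and 1 lower in male Gdf15-KO mice, beside the same shares of all genes. Mmadhc, of cobalamin handling, had a female log2 fold change of -0.20 ± 0.07 (SE, edgeR adjusted p = 0.327). In males Acadm (medium-chain acyl-CoA dehydrogenase) and Mcee (methylmalonyl-CoA epimerase) had the smallest p, at -0.25 and -0.19 on the log2 scale.

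Whether the effect of the genotype differed between the sexes was tested with the interaction term. None of the 14982 genes passed (0%), and at an unadjusted p under 0.05 none of the 42 did, beside 3.48% of all genes. The median difference, female minus male, was -0.14 for TCA cycle and pyruvate genes and 0.004 for BCAA genes on the log2 scale. The first of these was -0.07 without male WT mouse 4 and -0.08 without female WT mouse 2. It was -0.09 without female WT mouse 1 or female Gdf15-KO mouse 18. With the adipocyte score it was -0.05, and with the mammary score -0.007. The 95% intervals of single genes were wide: for Mpc2 the difference was -0.37 (-1.02 to 0.28), for Pcx -0.38 (-1.11 to 0.35) and for Ppm1k 0.24 (-0.03 to 0.51). A difference between the sexes was therefore neither shown nor bounded closely.

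**Figure D3:**
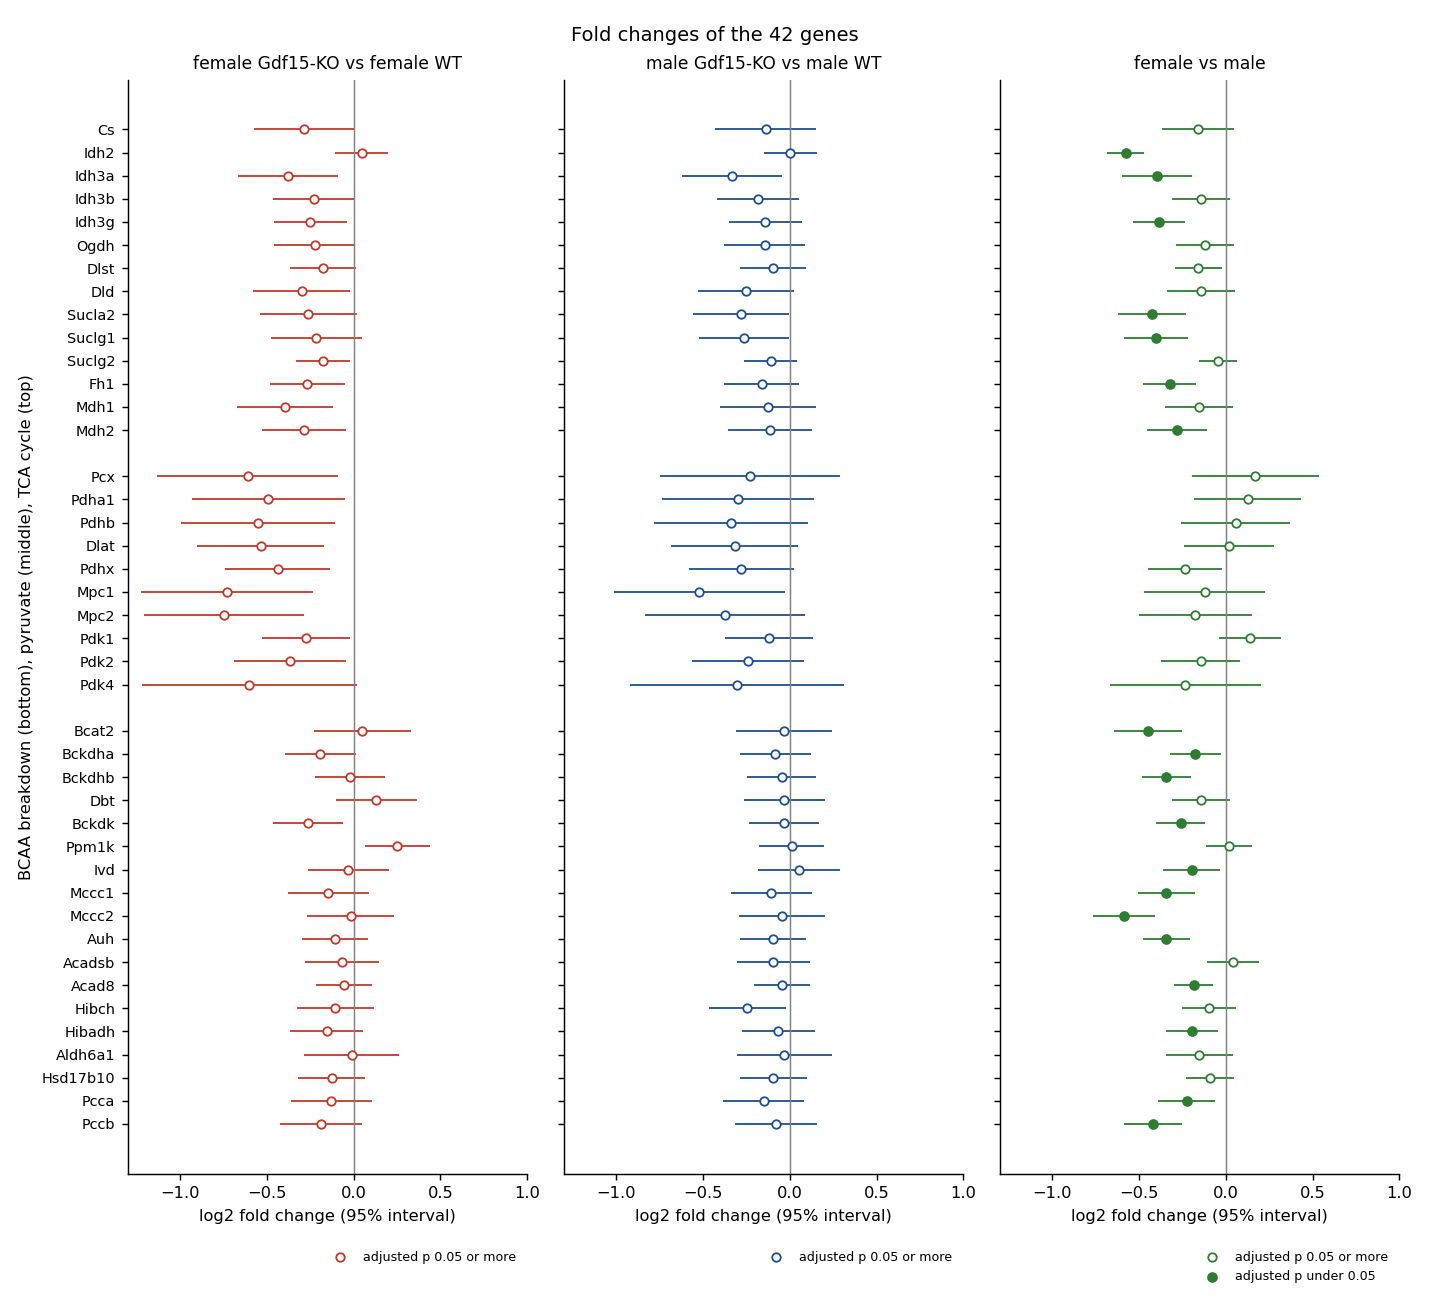
Log2 fold changes of all 42 genes with 95% intervals from edgeR for female Gdf15-KO against female WT, male Gdf15-KO against male WT, and female against male averaged over genotypes. Filled points passed an adjusted p of 0.05: there are 0 in the left and middle panels and 19 in the right panel, all to the left of 0.

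Finally, female mice were compared with male mice, averaged over both genotypes. Here 19 of the 42 genes were lower in females and none was higher, beside 44.2% of all genes called (20.9% of all genes lower and 23.4% higher). The 19 were 7 of 14 TCA cycle genes, 12 of 18 BCAA genes and none of 10 pyruvate genes. The median log2 fold change was -0.22 for the TCA cycle, -0.20 for the BCAA and -0.05 for the pyruvate genes, against -0.02 for all genes. For TCA cycle and pyruvate genes together it was -0.16, being -0.08 in WT mice alone and -0.24 in Gdf15-KO mice alone. These 2 medians were not tested against each other, and no single gene passed the interaction test. The gene group with the largest genotype values had no called gene between the sexes, and the BCAA genes had most. Such counts depend on the spread between mice, which was widest for the pyruvate genes. A difference between the gene groups was not tested. The same 24 mice serve in both kinds of comparison.

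Idh2, a mitochondrial source of NADPH (chromosome 7, 79741431 to 79765535, 11 exons), had 88.3, 93.5 and 111 CPM in the 12 females, against 124, 145 and 170 CPM in the 12 males. Its log2 fold change was -0.58 ± 0.05 (SE, edgeR adjusted p = 4.19e-09). All females lay below all males, as for 1.15% of all genes, and Idh2 was the only one of the 42 genes with this separation. By genotype it averaged 98.5 ± 7.80 CPM in female Gdf15-KO and 95.3 ± 7.93 CPM in female WT mice, and 145 ± 13.3 CPM in male Gdf15-KO and 144 ± 14.4 CPM in male WT mice (SD). Its Gdf15-KO and WT means thus differed by less than 1 SD in both sexes.

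The other TCA cycle genes lower in females were subunits of 3 further enzymes of the cycle's later steps and of isocitrate dehydrogenase. Idh3g, a regulatory subunit of the NAD-dependent enzyme, had 98.0, 125 and 169 CPM in females, against 125, 169 and 194 CPM in males (log2 fold change -0.38 ± 0.07, SE, edgeR adjusted p = 0.000148). Sucla2 had 74.4, 93.5 and 129 CPM in females, against 91.8, 124 and 185 CPM in males (log2 fold change -0.43 ± 0.09, SE, edgeR adjusted p = 0.000872). Suclg1 had 59.8, 71.2 and 95.1 CPM in females, against 65.0, 95.1 and 134 CPM in males (log2 fold change -0.40 ± 0.09, SE, edgeR adjusted p = 0.000888). The sexes overlapped for these 3 genes. Idh3a had a log2 fold change of -0.40, Fh1 of -0.32 and Mdh2 of -0.28. Among the TCA cycle genes that did not pass, Dlst was closest (-0.16, edgeR adjusted p = 0.0502). Of the pyruvate genes, 5 had a positive and 5 a negative value, between -0.23 (Pdhx) and 0.17 (Pcx).

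BCAA genes lower in females spanned the pathway. Mccc2, a subunit of methylcrotonyl-CoA carboxylase in leucine breakdown (chromosome 13, 100069907 to 100152178, 17 exons), had 40.7, 63.3 and 71.7 CPM in females, against 68.4, 92 and 111 CPM in males (log2 fold change -0.59 ± 0.09, SE, edgeR adjusted p = 7.17e-06). Of the 12 females, 11 lay below every male. Auh, the next enzyme of that branch, had 37.0, 42.8 and 49.6 CPM in females, against 44.5, 55.1 and 65.2 CPM in males (log2 fold change -0.34 ± 0.06, SE, edgeR adjusted p = 0.000164). Pccb had 121, 158 and 203 CPM in females, against 167, 225 and 247 CPM in males (log2 fold change -0.42 ± 0.08, SE, edgeR adjusted p = 0.00019). Bckdhb, an E1 subunit of the branched-chain ketoacid dehydrogenase, had 40.2, 46.2 and 51.2 CPM in females, against 45.1, 60.6 and 68.3 CPM in males (log2 fold change -0.34 ± 0.07, SE, edgeR adjusted p = 0.00031). The other 8 were Bcat2 (-0.45), Mccc1 (-0.34), Bckdk (-0.26), Pcca (-0.23), Hibadh (-0.20), Ivd (-0.20), Acad8 (-0.19) and Bckdha (-0.17) on the log2 scale. Ivd (isovaleryl-CoA dehydrogenase) and Bckdha passed narrowly, with edgeR adjusted p values of 0.0495 and 0.0468.

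Among WT mice alone, 7 of the 42 genes were lower in females, beside 7.78% of all genes called lower, and they were Idh2, Idh3g, Sucla2, Bcat2, Bckdhb, Mccc2 and Auh. Among Gdf15-KO mice alone, 14 were lower in females, beside 13.1% of all genes called lower, and these 14 included the 7. Values of female and male WT mice did not overlap for Idh2 and Mccc2, as for 3.1% of all genes in this direction. In Gdf15-KO mice they did not overlap for Idh2, Idh3g, Bckdk and Mccc2, as for 4.68% of all genes.

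**Figure D4:**
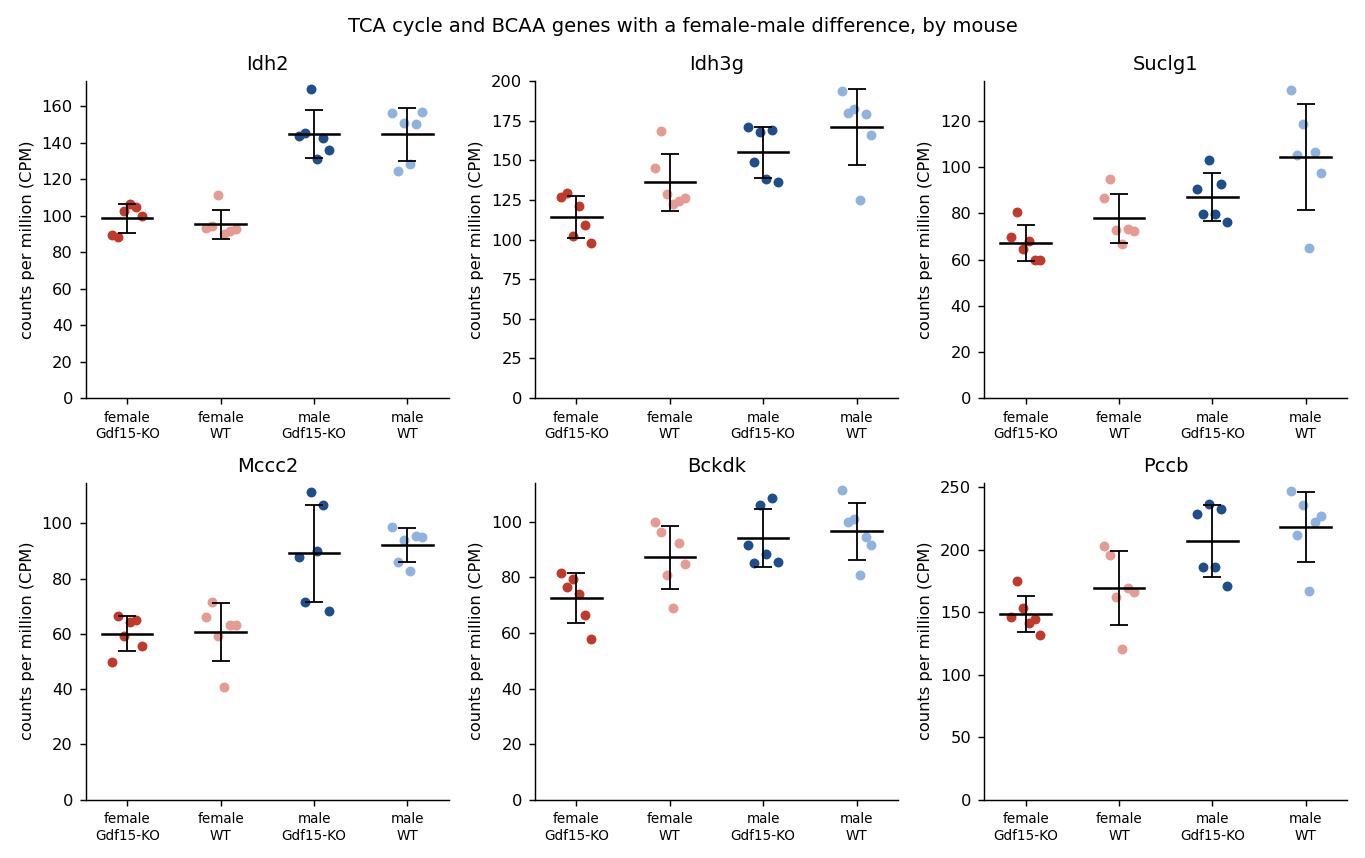
CPM of 6 TCA cycle and BCAA genes on linear axes from 0, with 1 point per mouse, a bar at the mean and error bars of 1 SD (6 mice per group). Idh2 separates all 12 females (88.3 to 111 CPM) from all 12 males (124 to 170 CPM), Mccc2 separates 11 of 12, and the Gdf15-KO and WT means of Idh2 lie close together within each sex.

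The cellular makeup differed between the sexes beside these values. Adipocyte markers were lower in females, with 10 of 12 called, none higher and a median log2 fold change of -0.49. Of all genes, 20.9% were called lower in females and 23.4% higher. The 14 mammary and epithelial markers summed to 961 to 1330 CPM in female Gdf15-KO and 1155 to 2248 CPM in female WT mice, against 5.30 to 11.97 CPM in male Gdf15-KO and 7.48 to 28.9 CPM in male WT mice. With the adipocyte score in the model, 5 of the 42 genes were called in place of 19, beside 26.2% in place of 44.2% of all genes: Idh2 and Mccc2 remained lower in females, and Pdha1, Acadsb and Hibch were higher. The mammary score separated the sexes completely, so that sex and mammary tissue cannot be told apart. Of the other BCAA genes, 9 of 20 were lower in females and 1 was higher, beside 20.9% and 23.4% of all genes. Acadm and Ehhadh, acyl-CoA enzymes of that list, were lower (-0.55 and -0.47 on the log2 scale, edgeR adjusted p = 1.07e-05 and 0.000554). Of the other TCA cycle and pyruvate genes, 4 of 28 were lower in females and 4 were higher, beside 20.9% and 23.4% of all genes. Pck2, the mitochondrial phosphoenolpyruvate carboxykinase, and Slc25a13, an aspartate-glutamate carrier, were higher in females (0.39 and 0.89, edgeR adjusted p = 9.53e-05 and 0.000239).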

How the data were processed

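RNA of sWAT from 24 mice was sequenced as 150 bp paired reads on a nanoball platform. The authors aligned reads to GRCm39 with Bowtie2 (2.2.5) and deposited RSEM (1.2.8) expected counts per gene in 1 table, whose values were rounded to whole counts here. Decimals, left where reads are shared between genes, occurred in 7.03% of tested genes but in only 1 of the 42 (Ogdh). Counts ranged from 22521358 to 24500575 per mouse. In R (4.3.3), genes were filtered with filterByExpr (minimum count 10), scaled by TMM and fitted with the edgeR (4.0.16) quasi-likelihood test in 1 model of the 4 group means, with Benjamini-Hochberg adjustment over 14982 genes and a threshold of 0.05. CPM values use TMM-scaled library sizes, and set levels use log2 CPM with a prior count of 2. The model and test were checked on simulated counts, with 1 spread for all genes and changes larger than those of the 42 genes. That check does not cover the spread and the smaller changes of these genes. Alternatives were DESeq2 (1.42.0, where the study used an earlier version), limma-voom (3.58.1), and other scalings and filters. Marker scores as covariates and leaving out each mouse were further alternatives. P-values measure the spread between mice. The 42 genes, the pathway and marker lists and the tests were chosen with earlier results of these data known. Values were given for the 6 genes with the smallest p in each genotype comparison (none having passed), for 4 TCA or pyruvate and 4 BCAA genes with the smallest p between the sexes, for the 2 other pathway genes with the smallest p of each list (some are not reported here), and for Bckdk, chosen after its values were seen as the counterpart of Ppm1k. Gene positions and transcript lengths come from GENCODE vM39 on GRCm39. Promoters come from RefSeq on GRCm38.p6.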

Additional observations from a re-analysis of the deposited data

Results flagged for a closer look

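Of 180 sets of 6 values, 12 held a mouse far from the others of its group, by a criterion that chance meets in about 1 of 20 sets. Of these 12, 9 concern BCAA genes in 2 WT mice. Female WT mouse 4 was the lowest of its group for Ivd (193 CPM, the next 310 CPM), Hibadh (156 CPM, the next 204 CPM) and Aldh6a1 (276 CPM, the next 422 CPM), and for the mean centred log2 CPM of the BCAA genes (-0.47, the next -0.09). Male WT mouse 4 was the lowest of its group for Bckdha (165 CPM, the next 232 CPM), Mccc1 (142 CPM, the next 180 CPM), Auh (44.5 CPM, the next 55.0 CPM) and Hibadh (188 CPM, the next 236 CPM), and for the mean of the BCAA genes (-0.0915, the next 0.17). The same 2 mice had the lowest summed adipocyte markers of their groups, 11020 CPM in the female (the next 12720 CPM) and 16130 CPM in the male (the next 16200 CPM). Female WT mouse 4 also had the highest sums of its group for mammary (2248 CPM, the next 1385 CPM), fibroblast (13510 CPM, the next 8601 CPM) and erythrocyte markers (1077 CPM, the next 547 CPM). The part of these markers was not tested. Other mice were high, namely female Gdf15-KO mouse 17 for Bcat2 (165 CPM, the next 140 CPM), male Gdf15-KO mouse 15 for Idh2 (170 CPM, the next 145 CPM) and female WT mouse 3 for Idh2 (111 CPM, the next 94.0 CPM). No gene among the 42 passed the test of a different genotype effect between the sexes.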

How the results depend on the processing

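In females and in males no gene among the 42 was called under edgeR with other scalings or filters, under limma-voom or when any mouse was left out (0 in each case, thresholds of 0.1 and 0.01 included). DESeq2 fitted to the females alone called 2. For the average of both sexes 0 were called, but 5 by DESeq2 in one fit, 11 with the mammary score as covariate, 1 with the adipocyte score (an alternative chosen after seeing the data), and 0 to 5 when 1 mouse was left out: 1 without male Gdf15-KO mouse 15 and 5 without male WT mouse 4. The cause was not tested. The median of TCA cycle and pyruvate genes stayed negative in all alternatives of the 3 genotype comparisons, from -0.38 to -0.23 in females and from -0.31 to -0.13 in males with 1 mouse left out (-0.13 without male WT mouse 1), and was -0.40 in males with the mammary score. The BCAA median also stayed negative. With 1 mouse left out it ran from -0.137 (without female WT mouse 4) to -0.0416 (without female WT mouse 2) in females. Leaving out female Gdf15-KO mouse 18 or female WT mouse 1 also moved it by over 1.5 times (to -0.0556 and -0.0508). So did the adipocyte score (to -0.0272 in females) and the B and T lymphocyte score (to -0.0517 in females). In males, with 1 mouse left out, it lay between -0.115 (without male Gdf15-KO mouse 17) and -0.0128 (without male Gdf15-KO mouse 18). Leaving out male Gdf15-KO mice 14 and 15 and male WT mice 4 and 5 in turn also moved it by over 1.5 times (to -0.0326, -0.0857, -0.107 and -0.034). The male BCAA median was -0.174 with the mammary score and -0.0963 with the adipocyte score. The median of the BCAA difference between the sexes, near 0, changed sign with single mice (-0.0478 to 0.0517). Between the sexes, 19 calls became 7 with WT mice only and 5 with the adipocyte score. They became 0 with the mammary score, which is nearly the sex itself, and 16 to 22 with 1 mouse left out. The TCA cycle and pyruvate median, -0.157 in the main model, was -0.0794 with WT mice only and -0.237 with Gdf15-KO mice only. Both of these settings use fewer samples, and the cause of the fewer calls was not tested. With the adipocyte score the medians were 0.13 for TCA cycle and pyruvate and 0.055 for BCAA genes, and with the mammary score 1.02 and 0.62. The mammary score also reversed Idh3g (0.53), Sucla2 (0.94), Suclg1 (0.94), Mccc2 (0.25), Auh (0.47), Pccb (0.57) and Bckdhb (0.20). Of the other values of single named genes, 943 kept direction and side of the threshold, 17 gained and 9 lost a call. Female and male mice of a genotype share numbers, whose meaning the labels do not give. In 4 of 12 pairs the male of the same number was the best match of the female among 6 males, where chance gives 1 in 6. The correlation was above 0.1 in 9 of 12 pairs (-0.56 to 0.396). With a replicate block (consensus correlation 0.0956), 0 genes were called in each genotype comparison and 21 between the sexes, and no other call changed. The intervals shown are for single genes and are not adjusted for the number of genes. At 6 mice per group, differences under about these intervals were not detectable. Larger ones could also miss the adjusted threshold, as Mpc2 did in females.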
